A study of Mus musculus with 18 samples.

Results

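The genes described here are 37 lysosomal genes, taken by symbol from a list of hydrolases, membrane proteins and 1 transcriptional regulator of the lysosome, out of 15288 genes in the table. All 37 were found. They include 8 membrane proteins (Lamp1, Lamp2, Scarb2, Cd63, Cd68, Npc1, Mcoln1 and Gpnmb) and 11 proteases (Ctsa, Ctsb, Ctsc, Ctsd, Ctsf, Ctsh, Ctsl, Ctss, Ctsz, Lgmn and Tpp1). There are 11 glycosidases and sulfatases (Gaa, Gla, Glb1, Gusb, Hexa, Man2b1, Manba, Neu1, Naglu, Sgsh and Arsb). A lipid group of 6 holds lipid hydrolases, transfer and activator proteins (Npc2, Lipa, Asah1, Smpd1 and Psap), with the glycoprotein Grn placed among them. The last is the transcription factor gene Tfeb. RNA was sequenced from mouse cells whose samples are labelled pulmonary microvascular endothelial cells, although the series title speaks of vascular smooth muscle cells. The cells received a scrambled siRNA or an siRNA against CYP1B1, the cytochrome that hydroxylates estradiol, by lipid transfection. At 24 hours after transfection they were given vehicle, 1 uM estradiol (E2) or 1 uM 16aOHE (16α-hydroxyestrone, an estrogen metabolite that carries a ketone where estradiol carries a hydroxyl, and an added hydroxyl beside it) for 24 hours in 5% serum. Each of the 6 groups had 3 libraries, 18 in all. Every group was transfected and kept in serum, so no group shows the cells without transfection. The labels do not say whether libraries came from separate cultures, so the p-values reflect only how far these libraries spread, and that spread may be technical.

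The lysosome is the acidic compartment in which cells break down proteins, glycans and lipids delivered by endocytosis and autophagy. Its soluble hydrolases are tagged with mannose 6-phosphate and sorted from the Golgi, its membrane is coated by heavily glycosylated proteins such as Lamp1 and Lamp2, and a vacuolar ATPase keeps it acidic. Many of its genes are controlled together by the transcription factor TFEB and its relatives, which the kinase mTORC1 holds in the cytoplasm of fed cells and which bind a sequence around the core CACGTG near gene starts.

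Promoter sequences are shown because the genes are known targets of factors that read this core. RefSeq sequences (GRCm38.p6) from 250 bases before to 50 bases after an annotated start were available for 33 of the 37 genes. Shown are 4 genes raised by E2 that hold the core (Mcoln1, Naglu, Gla and, at one of its 2 annotated starts, Ctsa), 1 raised gene without it (Neu1), and 1 gene that holds it and was not called (Glb1). Capitals mark CACGTG with a flanking T before or A after it where present, and every sequence runs 5′ to 3′ on the strand of the gene.
Mcoln1: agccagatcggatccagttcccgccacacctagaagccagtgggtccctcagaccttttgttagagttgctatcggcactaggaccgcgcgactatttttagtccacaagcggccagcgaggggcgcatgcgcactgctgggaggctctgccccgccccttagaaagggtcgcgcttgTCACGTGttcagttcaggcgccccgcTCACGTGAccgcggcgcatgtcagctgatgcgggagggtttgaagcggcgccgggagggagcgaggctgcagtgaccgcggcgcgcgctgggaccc
Naglu: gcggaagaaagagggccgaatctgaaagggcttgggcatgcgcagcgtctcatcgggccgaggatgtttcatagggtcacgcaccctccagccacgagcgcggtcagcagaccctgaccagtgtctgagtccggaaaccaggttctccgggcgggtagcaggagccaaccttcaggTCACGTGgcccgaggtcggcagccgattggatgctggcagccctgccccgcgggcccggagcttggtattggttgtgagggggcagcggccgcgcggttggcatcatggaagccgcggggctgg
Gla: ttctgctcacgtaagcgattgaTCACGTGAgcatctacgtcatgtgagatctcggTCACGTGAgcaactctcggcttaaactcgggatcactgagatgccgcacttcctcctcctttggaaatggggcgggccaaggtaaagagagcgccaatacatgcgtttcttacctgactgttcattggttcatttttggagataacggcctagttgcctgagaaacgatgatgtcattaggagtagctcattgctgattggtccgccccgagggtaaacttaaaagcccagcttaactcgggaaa
Ctsa: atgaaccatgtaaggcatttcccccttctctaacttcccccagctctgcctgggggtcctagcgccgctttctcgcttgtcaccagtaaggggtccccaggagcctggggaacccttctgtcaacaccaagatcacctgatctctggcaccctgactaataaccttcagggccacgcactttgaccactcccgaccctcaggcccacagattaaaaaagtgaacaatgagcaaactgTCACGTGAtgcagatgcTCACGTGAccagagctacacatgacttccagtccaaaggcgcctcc
Neu1: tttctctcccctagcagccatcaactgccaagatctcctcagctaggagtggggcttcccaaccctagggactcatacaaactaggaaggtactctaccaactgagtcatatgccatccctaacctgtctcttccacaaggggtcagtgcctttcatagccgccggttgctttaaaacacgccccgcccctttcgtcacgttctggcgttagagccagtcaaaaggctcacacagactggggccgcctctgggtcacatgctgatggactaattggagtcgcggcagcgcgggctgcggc
Glb1: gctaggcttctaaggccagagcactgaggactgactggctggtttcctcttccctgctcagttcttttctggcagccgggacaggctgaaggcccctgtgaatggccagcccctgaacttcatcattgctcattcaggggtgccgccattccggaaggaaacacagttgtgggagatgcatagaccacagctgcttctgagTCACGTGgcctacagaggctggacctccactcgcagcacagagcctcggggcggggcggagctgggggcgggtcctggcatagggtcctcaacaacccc
They lie at chr8:3500269-3500568 (plus strand), chr11:101069844-101070143 (plus), chrX:134600956-134601255 (minus), chr2:164833523-164833822 (plus), chr17:34931003-34931302 (plus) and chr9:114400828-114401127 (plus).

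CACGTG, which reads the same on both strands, was present in 12 of the 33 genes (36.4%): Lamp1, Mcoln1, Ctsa, Ctsd, Ctsf, Ctsl, Lgmn, Gaa, Gla, Glb1, Naglu and Sgsh. Over all 27025 genes with a sequence the share was 8.09%, and over the 9320 of them that were tested it was 12.0%. TCACGTG, which contains that core and was searched on both strands, was present in 10 of the 33 (30.3%) against 4.29% of all genes and 7.20% of tested genes. The full palindrome TCACGTGA, which contains both, was present in Mcoln1, Ctsa, Ctsd and Gla (12.1%) against 1.12% of all genes and 2.32% of tested genes. Lamp1 held 4 copies of the core, at 61, 45, 28 and 15 bases before its start. These matches are descriptions of the letters in a window of fixed length and not measurements of binding.

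The 37 genes differed widely in abundance. On a scale of mean CPM (a read count scaled to the depth of its library, averaged over the 18 libraries) per kilobase of merged exons, Psap, the precursor of the saposins that present lipids to hydrolases, was highest at 520.0. It was followed by Lamp1 at 486, the aspartic protease Ctsd at 431, the cholesterol carrier Npc2 at 229 and progranulin (Grn) at 204. Tfeb at 5.92 and the cysteine protease Ctsf at 5.83 were the lowest of the 35 genes that were tested. Ctss and Ctsh, cathepsins of antigen-presenting and epithelial cells, lay at 0.295 and 0.278 CPM averaged over the libraries, under the minimum mean of 1 CPM, and were not tested. Ctss ranged over 0.0713 to 0.527 CPM in single libraries, and Ctsh was at 0 in 1 library. The 37 genes together made up 0.976% of the scrambled vehicle libraries' CPM.

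Read from the steps between low values, 1 CPM was worth 14.1 (siCYP1B1 16aOHE replicate 1) to 38.5 reads across the libraries, which is also the relative depth of each. Replicates of a group correlated at 0.995 to 0.998 over tested genes, and the labels name no batch. The targeted gene, Cyp1b1, was at 92.2 ± 3.58, 118 ± 1.06 and 106 ± 1.25 CPM (SD, n = 3) in scrambled vehicle, E2 and 16aOHE libraries and at 81.5 ± 0.724, 103 ± 1.95 and 90.1 ± 1.39 CPM in the matching siCYP1B1 groups. Averaged over the 3 estrogen arms it was lower by a log2 change of -0.20 ± 0.020 (SE; limma adjusted p = 5.83e-08), a small reduction of the transcript. The labelled cell type was checked against fixed markers. Of 8 endothelial markers in the table, Pecam1 and Vwf averaged 0.0481 and 0.0305 CPM and were at 0 in 8 and 12 of the 18 libraries, Tek and Egfl7 averaged 0.824 and 1.14 CPM, and Kdr, Esam, Flt1 and Cd34 averaged 4.37, 18.9, 70.0 and 107 CPM. Of 6 smooth muscle markers, Myh11, Cnn1 and Des averaged 0.0764, 0.106 and 0.727 CPM, and Tagln, Acta2 and Smtn 2.66, 20.5 and 90.1 CPM. The 6 mesothelial markers ranged from 3.87 (Krt18) to 1521 CPM (Msln), and the 6 fibroblast markers from 0.0427 (Lum) to 2488 CPM (Col3a1). Of the 12 endothelial markers listed, Cdh5, Tie1, Emcn and Cldn5 were not in the table under those symbols. Most of the 12 listed markers of the labelled cell type were thus absent from the table or low. As a set they did not bear out the label. Pecam1 and Vwf were near 0, Tek was under 1 CPM and Egfl7 just above it, while others such as Flt1 and Cd34 were present. The highest mesothelial and fibroblast markers, Msln and Col3a1, lay far above all the endothelial ones. Because Cd68 and Gpnmb are also abundant in macrophages, 10 leukocyte markers were read as well. Cd14, Mpeg1 and Fcgr3 averaged 22.0, 10.7 and 1.57 CPM, and the other 7 lay between 0.0290 (Itgam) and 0.821 CPM (Cybb), with Ptprc, Itgam and Fcer1g at 0 in 11 libraries each.

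E2 raised most of the lysosomal genes in cells with scrambled siRNA. Of the 35 tested, 25 rose and 2 fell at an adjusted p under 0.05 (limma with Benjamini-Hochberg adjustment over 11835 tested genes), against 18.6% of all tested genes rising and 11.4% falling. The median log2 change of the 35 was 0.18 beside 0.034 over all tested genes. All log2 changes are differences of log2(CPM + 1), which understates the change of genes of low level. Neu1, Mcoln1 and Naglu changed most, each by about 0.5. Tfeb, whose protein drives this class of genes, fell.

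**Figure D1:**
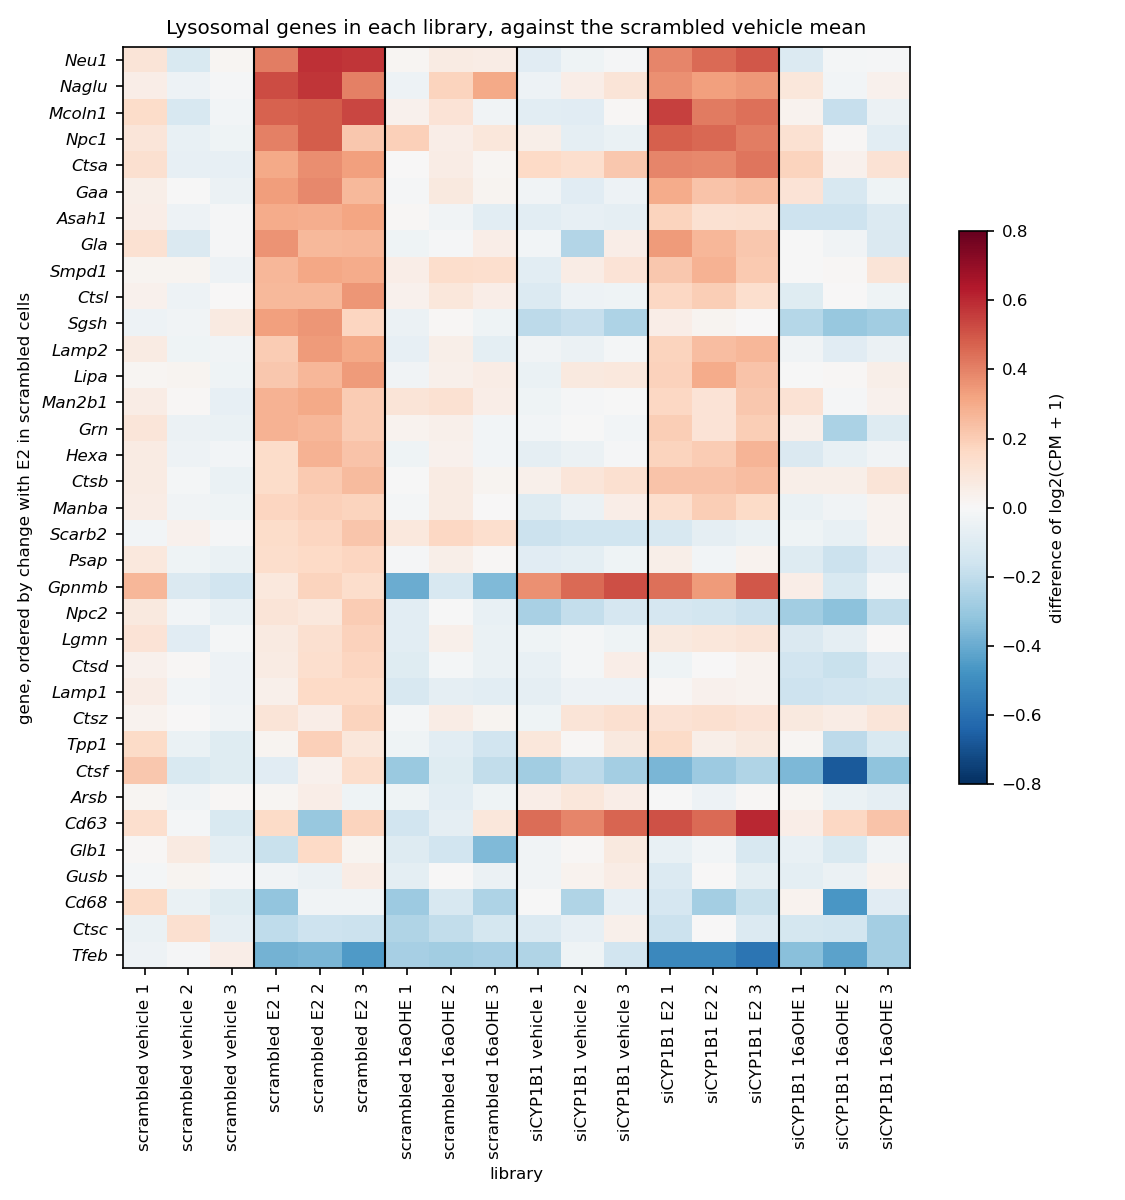
Heat map of the 35 tested lysosomal genes (rows, ordered by the change with E2 in scrambled cells) in the 18 libraries (columns). Colour is the difference of log2(CPM + 1) from the mean of the scrambled vehicle libraries; both E2 groups are red over the upper rows, with Neu1, Naglu and Mcoln1 at the top, and Tfeb is blue at the bottom.

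Among the membrane proteins, 5 of 8 rose. Mcoln1, a lysosomal calcium-permeable channel (chr8:3500519-3515231, mm10), measured 56.2, 46.3 and 49.8 CPM in the 3 scrambled vehicle libraries and 70.5, 71.3 and 73.8 CPM in the 3 scrambled E2 libraries. Every E2 library was above every vehicle library, and the log2 change was 0.50 ± 0.064 (SE; limma adjusted p = 6.09e-06). Npc1, which exports cholesterol from the lysosome, measured 71.5, 63.9 and 65.1 CPM with vehicle and 88.8, 93.7 and 77.8 CPM with E2, a log2 change of 0.37 ± 0.064 (SE; limma adjusted p = 0.00017), again without overlap. Lamp2, the splice forms of which include the receptor of chaperone-mediated autophagy, rose by 0.28. Scarb2, the receptor that carries glucocerebrosidase to the lysosome, rose by 0.18 and Lamp1 by 0.12. Gpnmb, a glycoprotein of lysosomes and melanosomes, had a log2 change of 0.14 ± 0.085 (SE; limma adjusted p = 0.243) and was not called. Cd63, a tetraspanin of late endosomes, and Cd68, a sialomucin of macrophage lysosomes, had log2 changes of 0.0096 and -0.12 and were not called either.

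The glycosidases and sulfatases rose in 8 of 11 cases. Neu1, the sialidase that removes terminal sialic acids (chr17:34931253-34937297), measured 67.5, 57.6 and 63.5 CPM with vehicle and 83.7, 94.6 and 93.8 CPM with E2, a log2 change of 0.52 ± 0.055 (SE; limma adjusted p = 4.88e-07). Naglu, which cleaves N-acetylglucosamine from heparan sulfate (chr11:101070094-101077671), measured 43.1, 40.3 and 41.2 CPM with vehicle and 60.0, 62.3 and 55.1 CPM with E2, a log2 change of 0.50 ± 0.067 (SE; limma adjusted p = 1.15e-05). In both genes the E2 libraries lay above all vehicle libraries. Gaa, the acid glucosidase of glycogen, rose by 0.33, Gla, which cleaves terminal galactose from globotriaosylceramide, by 0.30, and Sgsh, a heparan sulfate sulfatase, by 0.28. The mannosidases Man2b1 and Manba rose by 0.26 and 0.18, and Hexa, a subunit of beta-hexosaminidase, by 0.22. Glb1 (beta-galactosidase), Gusb (beta-glucuronidase) and Arsb (arylsulfatase B) did not pass the test. Their log2 changes were 0.012 or less in size, with 95% intervals of -0.16 to 0.16, -0.088 to 0.081 and -0.059 to 0.082.

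Of the 9 proteases tested, 6 rose and 1 fell. Ctsa, the carboxypeptidase that holds Neu1 and Glb1 in a stable complex (chr2:164832872-164841032), measured 150.1, 131 and 131 CPM with vehicle and 169.5, 177 and 172 CPM with E2, a log2 change of 0.33 ± 0.047 (SE; limma adjusted p = 1.83e-05). The cysteine proteases Ctsl and Ctsb rose by 0.29 and 0.20. Smaller rises were called in the asparaginyl protease Lgmn at 0.13, in Ctsd at 0.12 and in the carboxypeptidase Ctsz at 0.11. Ctsc, the dipeptidyl peptidase that activates granule proteases of leukocytes, fell from 36.0, 41.0 and 35.5 CPM to 32.4, 33.3 and 33.2 CPM, a log2 change of -0.18 ± 0.063 (SE; limma adjusted p = 0.0369). That call was lost in a fit on only the groups compared and when scrambled vehicle replicate 2 or any 1 of the scrambled E2 libraries was left out, with an adjusted p of up to 0.221. Tpp1, a tripeptidyl peptidase, and Ctsf had log2 changes of 0.10 and 0.029 and were not called.

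All 6 genes of the lipid group, Grn included, rose with E2 in scrambled cells. Asah1, acid ceramidase, measured 152, 143 and 146 CPM with vehicle and 181, 179.6 and 183 CPM with E2, and its log2 change was 0.30 ± 0.034 (SE; limma adjusted p = 1.49e-06). Smpd1, acid sphingomyelinase, rose by 0.29, Lipa, the acid lipase of cholesteryl esters, by 0.27, and Grn, a secreted and lysosomal glycoprotein, by 0.25. Psap rose by 0.16 and Npc2, which hands cholesterol to Npc1, by 0.13. Tfeb (chr17:47737037-47792416) ran the other way: it measured 28.0, 28.7 and 29.9 CPM with vehicle and 22.0, 22.2 and 20.8 CPM with E2, without overlap, a log2 change of -0.40 ± 0.062 (SE; limma adjusted p = 5.50e-05).

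These calls depended in part on the scaling of the libraries. With median-of-ratios factors 20 of the 35 genes rose and 2 fell, against 12.8% and 15.1% of all tested genes. All called genes then split 45.9% higher in place of 62.0%. With quantile normalization 25 rose and 2 fell, against 14% and 13.4% of all tested genes, with 51.0% of all calls higher. The small rises of Lamp1, Ctsd, Ctsz, Lgmn and Npc2 were lost with median-of-ratios factors, and those of Lamp1, Ctsz and Lgmn also in a fit on only the groups compared. They were also lost without single libraries (scrambled vehicle replicates 2 and 3 and scrambled E2 replicates 1 to 3, in differing combinations), with adjusted p of up to 0.211 (Lgmn), 0.19 (Ctsz), 0.131 (Npc2), 0.111 (Ctsd) and 0.105 (Lamp1). The remaining 21 calls, Tfeb among them and Ctsc not, stood under each alternative run. Cell type markers also moved in the same comparison. With E2, 5 of 6 mesothelial, 4 of 5 tested fibroblast, 3 of 5 endothelial and 1 of 3 smooth muscle markers fell and 0 of each rose. The part of these markers in the lysosomal result was not tested.

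**Figure D2:**
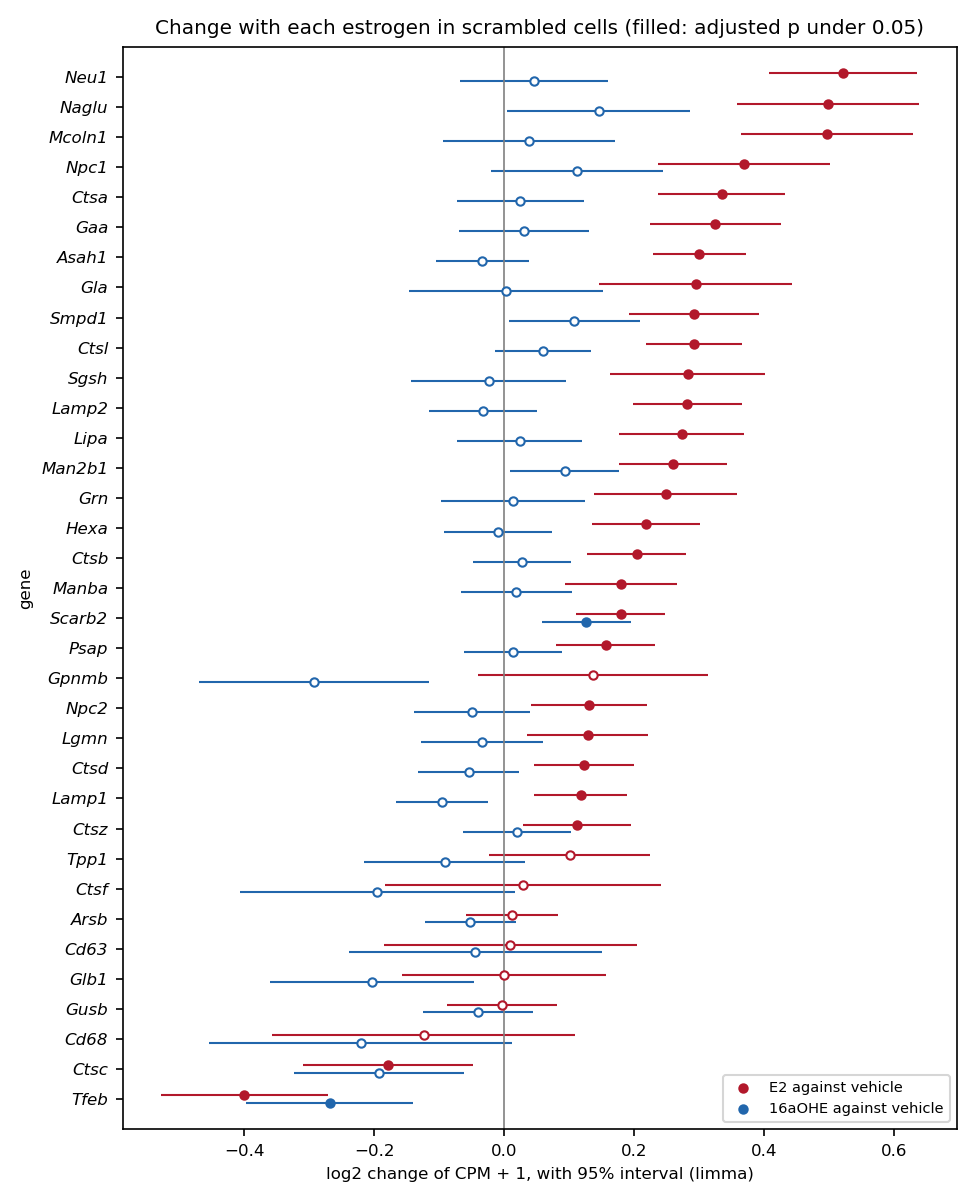
Log2 change of CPM + 1 (x axis, bars are 95% intervals from limma) of the 35 tested genes (y axis) in scrambled cells for E2 and for 16aOHE, each against the same 3 vehicle libraries; filled points passed an adjusted p of 0.05. The red E2 points lie between -0.40 (Tfeb) and 0.52 (Neu1), and the blue 16aOHE points between -0.29 (Gpnmb) and 0.15 (Naglu).

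The E2 response recurred in cells with siCYP1B1, whose group means come from other libraries than those of the scrambled comparison. The spread was estimated once over all 18 libraries, so the p-values of the 2 comparisons are not independent. There 18 of the 35 genes rose and 1 fell, against 16.7% and 10.8% of all tested genes, with a median log2 change of 0.15 beside 0.038 over all genes. All 18 were among the 25 raised in scrambled cells (100% of the 18, 72% of the 25), and the 1 that fell was Tfeb again. The 7 genes called only in scrambled cells were Lamp1, Scarb2, Ctsd, Ctsz, Lgmn, Npc2 and Psap, with log2 changes here of 0.073, 0.080, 0.0055, 0.054, 0.12, 0.046 and 0.086. The rise of Mcoln1 was from 47.6, 47.5 and 50.8 CPM to 74.5, 67.9 and 69.1 CPM, a log2 change of 0.53 ± 0.064 (SE; limma adjusted p = 3.27e-06). Neu1 went from 58.9, 61.3 and 62.2 CPM to 82.6, 86.2 and 88.9 CPM, a log2 change of 0.49 ± 0.055 (SE; limma adjusted p = 1.10e-06), and Npc1 from 69.0, 63.4 and 64.3 CPM to 93.4, 92.0 and 89.1 CPM, a log2 change of 0.48 ± 0.064 (SE; limma adjusted p = 1.09e-05). In each of these genes the E2 libraries lay above all the vehicle libraries. Gla rose from 25.4 ± 2.65 to 32.4 ± 1.43 CPM (SD, n = 3), a log2 change of 0.34 ± 0.072 (SE; limma adjusted p = 0.0012). Naglu rose from 42.6 ± 2.18 to 53.1 ± 0.644 CPM, a log2 change of 0.31 ± 0.067 (SE; limma adjusted p = 0.00162).

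The remaining 13 rises in siCYP1B1 cells, in Lamp2, Ctsa, Ctsb, Ctsl, Gaa, Hexa, Man2b1, Manba, Sgsh, Lipa, Asah1, Smpd1 and Grn, ran from 0.15 (Ctsb) to 0.31 (Gaa). The call of Grn was lost without siCYP1B1 E2 replicate 1 or replicate 3 (adjusted p up to 0.0549), and the other 18 calls stood under each alternative. Median-of-ratios factors gave 18 higher and 3 lower, against 11.3% and 14% of all tested genes. Quantile normalization gave 21 higher and 2 lower, against 12.9% and 12.5%. The share of all calls that were higher moved from 60.6% to 44.7% and 50.8%. Tfeb measured 24.3, 28.2 and 25.9 CPM with vehicle and 19.9, 19.9 and 19.0 CPM with E2, a log2 change of -0.39 ± 0.062 (SE; limma adjusted p = 7.61e-05). Gpnmb measured 83.1, 88.1 and 92.2 and 87.6, 81.6 and 91.0 CPM, overlapping ranges, with a log2 change of -0.017 ± 0.085 (SE; limma adjusted p = 0.902).

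Whether the E2 change differed between the siRNAs was tested with an interaction term. No gene of the table was called (0% of tested genes; limma, adjusted p under 0.05), and an unadjusted p under 0.05 was reached by 2 of the 35 lysosomal genes, Ctsd (-0.12) and Scarb2 (-0.10), and by 3.97% of all tested genes. For Mcoln1, Neu1 and Tfeb the differences between the 2 responses were 0.028, -0.032 and 0.0067, with 95% intervals of -0.16 to 0.22, -0.19 to 0.13 and -0.18 to 0.19. For Naglu the difference was -0.19 (-0.39 to 0.011). Of the 35 differences 26 were negative, with a median of -0.067 beside -0.0026 over all tested genes. Since no gene was called, the 7 genes called in scrambled cells only are not shown to respond differently.

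**Figure D3:**
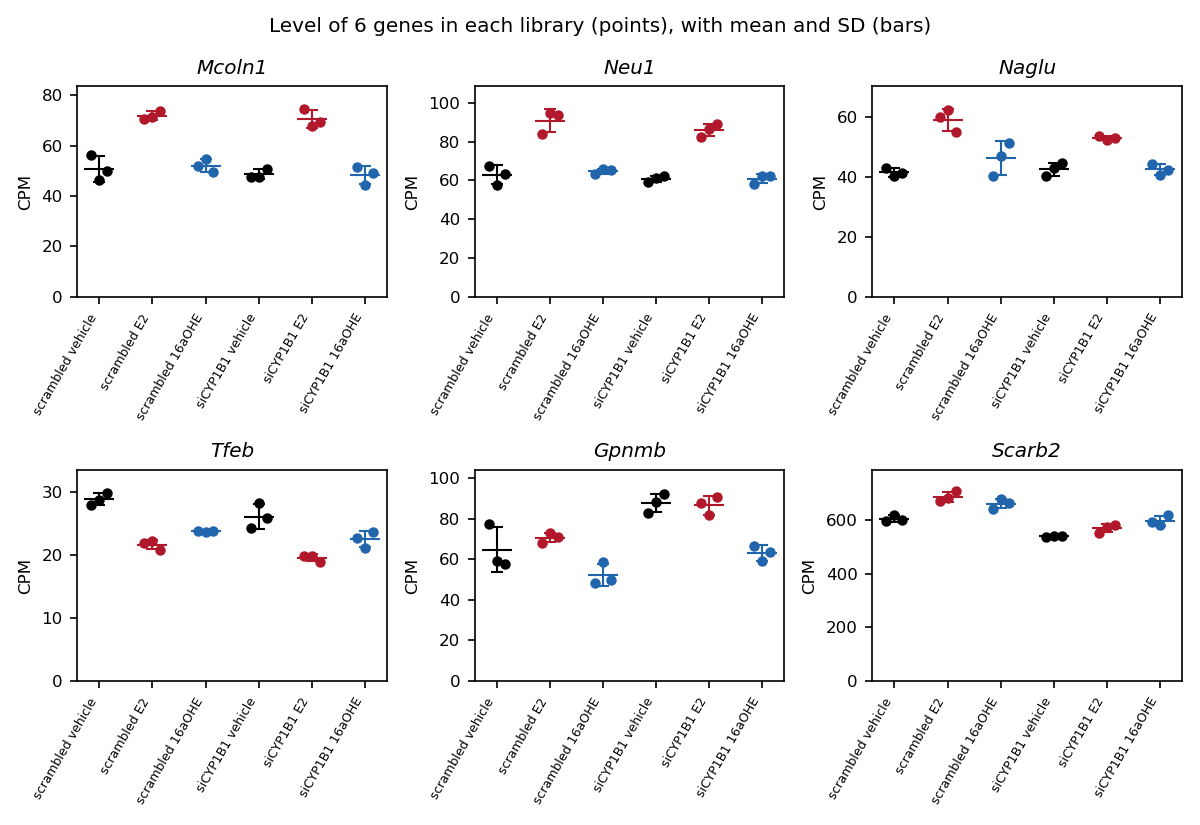
CPM of Mcoln1, Neu1, Naglu, Tfeb, Gpnmb and Scarb2 in each library (points) by group (x axis), with the mean and SD of 3 libraries (bars) on axes that start at 0. E2 libraries are high in the top row with either siRNA, Tfeb is lowest in the E2 groups, and Gpnmb and Scarb2 differ between the siRNAs.

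In the promoters described above, 10 of the 12 tested genes that hold CACGTG rose with E2 in scrambled cells, with a median log2 change of 0.29. Of the 20 tested genes whose windows do not hold it, 12 rose, with a median of 0.15. The gap between these counts depended on the scaling. With median-of-ratios factors Lamp1, Ctsd and Lgmn, which hold the core, lost their calls, as did Ctsz and Npc2, which do not. Neu1, the gene with the largest rise, and Npc2, Lipa, Smpd1 and Hexa were among those without the core, while Glb1 and Ctsf held it and were not called. Over all 9320 tested genes with a promoter, 23.8% of those holding CACGTG and 18.1% of those not holding it rose. All 4 genes with the full palindrome rose, as did 18 of the 28 tested lysosomal genes without it. Over all tested genes with a promoter, 30.1% of those holding the palindrome and 18.5% of those not holding it rose. These counts describe the E2 comparison already given and are no second test of it.

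16aOHE at the same dose and time left nearly all of these genes without a call. In scrambled cells 1 of 35 rose and 1 fell, beside 1.76% and 2.08% of all tested genes, close to that background at this threshold. The median log2 change was -0.0089 (0.0031 over all genes). At an unadjusted limma p under 0.05 the count was 9 of the 35, a larger share than the 14.9% of all tested genes that reached it. Scarb2 measured 596, 619 and 602 CPM with vehicle and 643, 678 and 663 CPM with 16aOHE, a log2 change of 0.13 ± 0.033 (SE; limma adjusted p = 0.0309). Tfeb measured 23.8, 23.7 and 23.9 CPM with 16aOHE against 28.0 to 29.9 CPM with vehicle, a log2 change of -0.27 ± 0.062 (SE; limma adjusted p = 0.0142). In both genes the groups did not overlap, but neither call stood under every alternative. That of Scarb2 was lost with median-of-ratios factors and without scrambled vehicle replicate 1 or 3 or scrambled 16aOHE replicate 2 or 3 (adjusted p up to 0.149). That of Tfeb was lost without scrambled vehicle replicate 3 or scrambled 16aOHE replicate 1 or 2 (up to 0.0732).

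The genes that E2 raised most had small changes with 16aOHE in scrambled cells. Mcoln1 measured 52.0, 54.7 and 49.5 CPM and changed by 0.039 (95% interval -0.094 to 0.17), and Neu1 measured 63.3, 65.8 and 65.3 CPM and changed by 0.046 (-0.068 to 0.16). Naglu measured 40.3, 47.0 and 51.4 CPM, spread over the vehicle range and above it, and changed by 0.15 ± 0.067 (SE; limma adjusted p = 0.308). Gpnmb measured 48.5, 58.7 and 49.98 CPM against 77.4, 59.2 and 57.7 CPM with vehicle. Its log2 change was -0.29 ± 0.085 (SE; limma adjusted p = 0.0582), which missed the threshold, and 1 library of each group lay within the range of the other. The other genes not called ran from -0.22 (Cd68) to 0.11 (Npc1).

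In siCYP1B1 cells 16aOHE raised 1 gene and lowered 2, against 2.53% and 2.86% of all tested genes, with a median log2 change of -0.053 (-0.0070 over all). At an unadjusted limma p under 0.05 the count was 10 of the 35, a larger share than the 19.1% of all tested genes that reached it. Scarb2 rose again, from 536, 541 and 542 to 592, 582 and 618 CPM, a log2 change of 0.15 ± 0.033 (SE; limma adjusted p = 0.0106). Gpnmb fell from 83.1, 88.1 and 92.2 CPM to 66.6, 59.0 and 63.8 CPM, with no overlap, a log2 change of -0.47 ± 0.085 (SE; limma adjusted p = 0.00185), and this call stood under each alternative. Ctsd fell by 0.13 on the log2 scale (limma adjusted p = 0.0402), from 919.6 ± 36.4 to 839 ± 27.3 CPM (SD, n = 3). It was lost without siCYP1B1 vehicle replicate 2 or 3, without siCYP1B1 16aOHE replicate 1 or 2, with median-of-ratios factors, with no filter on low values and in a fit on only the groups compared (adjusted p up to 0.214), and Scarb2 without siCYP1B1 16aOHE replicate 3 (0.0547). Without siCYP1B1 16aOHE replicate 1 the count of called genes went from 3 to 5. Tfeb changed by -0.20 ± 0.062 (SE; limma adjusted p = 0.0599) and was not called. The interaction of 16aOHE with the siRNA called no gene of the table (0%; limma), and an unadjusted p under 0.05 was reached by 0 of the 35 and by 5.04% of all tested genes. A fit on only the groups compared called 12 genes of the table lower, 0 of them lysosomal. Its values for the 35 ran from -0.24 (Cd63, 95% interval -0.52 to 0.035) to 0.15.

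The 2 estrogens were also compared directly, at matched dose and time. This uses the same E2 libraries as the comparisons with vehicle, so the values are given beside those and are not a second line of support. In scrambled cells 25 of the 35 genes were lower with 16aOHE than with E2 and 0 were higher, where 11.6% and 6.78% of all tested genes were lower and higher. The median log2 difference was -0.20 beside -0.028 over all genes. In siCYP1B1 cells 25 were lower and 1, Tfeb, was higher, against 11.8% and 6.59%, with a median of -0.20 beside -0.038. Of the 25 genes lower in each, 24 were shared (96% of each list), with Npc2 called in scrambled cells only and Cd63 in siCYP1B1 cells only. The group means of these 2 comparisons come from different libraries, but their p-values share 1 estimate of spread. Over all tested genes the share of calls that were higher moved from 36.8% to 55.1% in scrambled cells with median-of-ratios factors and to 49.4% with quantile normalization. In siCYP1B1 cells it moved from 35.9% to 59.2% and 52.0%. The 35 genes still gave 25 calls under both in scrambled cells, and 22 and 27 in siCYP1B1 cells. Of all tested genes, 7.99% and 8.37% were then lower and 9.8% and 8.18% higher in scrambled cells. In siCYP1B1 cells 6.89% and 7.48% were lower and 10% and 8.09% higher. With either siRNA 5 of 6 mesothelial, 4 of 5 tested fibroblast, 2 of 5 endothelial and 1 of 3 smooth muscle markers were higher with 16aOHE than with E2 and 0 of each were lower, and their part in the lysosomal result was not tested.

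The largest differences between the estrogens were in the channel, the sialidase and Gpnmb. Neu1 differed by -0.48 ± 0.055 (SE; limma adjusted p = 4.85e-06) in scrambled cells and -0.49 ± 0.055 (SE; limma adjusted p = 2.39e-06) in siCYP1B1 cells, where it measured 58.2, 62.0 and 62.3 CPM with 16aOHE. Mcoln1 differed by -0.46 ± 0.064 (SE; limma adjusted p = 4.08e-05) and -0.54 ± 0.064 (SE; limma adjusted p = 5.23e-06), and measured 51.5, 44.5 and 49.1 CPM with 16aOHE in siCYP1B1 cells. Gpnmb differed by -0.43 ± 0.085 (SE; limma adjusted p = 0.00128) and -0.45 ± 0.085 (SE; limma adjusted p = 0.000815), although E2 against vehicle gave no call for it. Naglu differed by -0.35 ± 0.067 (SE; limma adjusted p = 0.000911) in scrambled cells, and Asah1, at 148, 144 and 138 CPM with 16aOHE, by -0.33 ± 0.034 (SE; limma adjusted p = 1.45e-06). In each of these genes every E2 library was above every 16aOHE library.

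In siCYP1B1 cells Npc1 measured 72.8, 67.2 and 62.9 CPM with 16aOHE and differed from E2 by -0.43 ± 0.064 (SE; limma adjusted p = 6.35e-05). Cd63 measured 80.6, 77.2 and 86.0 CPM with E2 and 58.4, 63.2 and 66.1 CPM with 16aOHE, a difference of -0.37 ± 0.094 (SE; limma adjusted p = 0.00823). Tfeb measured 22.7, 21.2 and 23.8 CPM with 16aOHE and was higher than with E2 by 0.19 ± 0.062 (SE; limma adjusted p = 0.0352), a call that was lost in a fit on only the groups compared and when any 1 of the siCYP1B1 E2 libraries, or siCYP1B1 16aOHE replicate 1 or 3, was left out (adjusted p up to 0.135). In scrambled cells the Tfeb difference was 0.13 ± 0.062 (SE; limma adjusted p = 0.148). Genes without a call in either comparison were Scarb2, Cd68, Arsb, Gusb, Glb1, Ctsc, Ctsf and Ctsz, with differences in scrambled cells from -0.22 (Ctsf) to -0.014 (Ctsc). The remaining called genes differed by -0.31 (Lamp2) to -0.14 (Psap) in scrambled cells.

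Some of these calls rested on single libraries. In scrambled cells Npc1 lost its call without E2 replicate 2 (limma adjusted p = 0.051) and Smpd1 without 16aOHE replicate 1 (0.0571). Lgmn lost its call without E2 replicate 3 or 16aOHE replicate 1 or 3 (up to 0.0728), and Tpp1 without replicate 2 or 3 of either group (up to 0.134). In siCYP1B1 cells Ctsd, Lgmn, Tpp1, Man2b1 and Psap lost theirs with median-of-ratios factors, and Man2b1 also with no filter on low values and in a fit on only the groups compared. Ctsd was also lost without E2 replicate 3 or 16aOHE replicate 2 (up to 0.0985), Psap without E2 replicate 1 or 16aOHE replicate 2 (0.066), and Lgmn without E2 replicate 2 or 3 or 16aOHE replicate 1 or 2 (0.101). Tpp1 and Man2b1 were lost without E2 replicate 1 or 3 or 16aOHE replicate 2 or 3 (0.136 and 0.198).

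With the siRNA against CYP1B1, lysosomal genes were called in both directions. Averaged over the 3 estrogen arms, 4 of the 35 genes were higher and 10 were lower with siCYP1B1, against 26.5% and 18.2% of all tested genes, a smaller share higher and a larger share lower than over the table. The median log2 change was -0.043 beside 0.026 over all genes. The higher genes were Cd63 at 0.38 ± 0.054 (SE; limma adjusted p = 8.02e-06), Gpnmb at 0.33 ± 0.049 (SE; limma adjusted p = 1.23e-05), Ctsa at 0.11 ± 0.027 (SE; limma adjusted p = 0.00281) and Ctsb at 0.052 ± 0.021 (SE; limma adjusted p = 0.0494). The lower genes were led by Ctsf at -0.28 ± 0.059 (SE; limma adjusted p = 0.000622), Sgsh at -0.24 ± 0.033 (SE; limma adjusted p = 6.01e-06), Npc2 at -0.23 ± 0.025 (SE; limma adjusted p = 1.99e-07), Scarb2 at -0.19 ± 0.019 (SE; limma adjusted p = 5.75e-08) and Tfeb at -0.12 ± 0.036 (SE; limma adjusted p = 0.0104). Asah1, Psap, Ctsl, Ctsd and Lamp1 were also lower, with log2 changes of -0.12, -0.11, -0.096, -0.072 and -0.068. The genes that E2 raised most were not called: Neu1, Naglu, Mcoln1 and Npc1 changed by -0.071, -0.076, -0.063 and -0.014. The call of Ctsb was lost with no filter on low values, with median-of-ratios factors and without any 1 of 12 libraries (replicates 2 and 3 of scrambled vehicle and of siCYP1B1 vehicle, 1 and 2 of scrambled E2, 1 and 3 of scrambled 16aOHE, 1 to 3 of siCYP1B1 E2 and 3 of siCYP1B1 16aOHE; adjusted p up to 0.232). Those of Ctsd and Lamp1 were lost with quantile normalization (0.155 and 0.166). In the same comparison 5 of 6 mesothelial, 5 of 5 tested fibroblast, 3 of 5 endothelial and 3 of 3 smooth muscle markers fell and 0 of each rose. All called genes split 59.3% higher, and 49.4% with median-of-ratios factors. With those factors 3 of the 35 lysosomal genes were higher and 14 lower, against 20.5% and 21% of all tested genes.

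**Figure D4:**
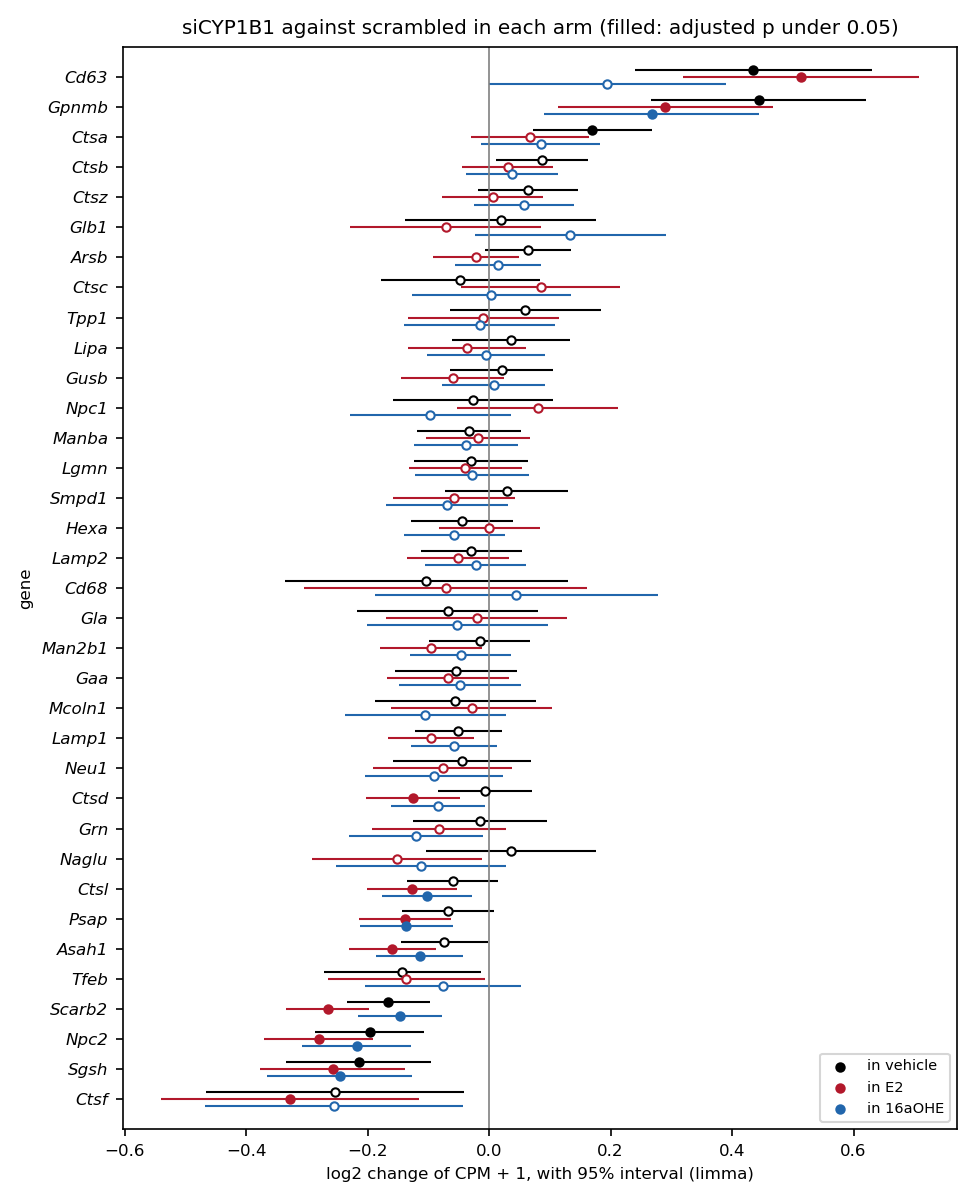
Log2 change of CPM + 1 with siCYP1B1 against scrambled siRNA (x axis, bars are 95% intervals from limma) for the 35 tested genes (y axis) in vehicle, E2 and 16aOHE; filled points passed an adjusted p of 0.05. Cd63 and Gpnmb lie at the top, to the right of 0, and Scarb2, Npc2, Sgsh and Ctsf at the bottom, to its left.

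In vehicle, 3 genes were higher and 3 lower with siCYP1B1, against 11.5% and 9.12% of all tested genes, close to the share over the table in either direction, with a median log2 change of -0.030 beside 0.028. Gpnmb (chr6:49036518-49058182) measured 77.4, 59.2 and 57.7 CPM with scrambled siRNA and 83.1, 88.1 and 92.2 CPM with siCYP1B1, a log2 change of 0.44 ± 0.085 (SE; limma adjusted p = 0.000793). Cd63 (chr10:128908919-128912818) measured 61.8, 55.6 and 51.7 and 77.1, 74.1 and 77.8 CPM, a log2 change of 0.44 ± 0.094 (SE; limma adjusted p = 0.00218). Its reads may be shared with the near-identical pseudogene Cd63-ps, so its level is uncertain. Both genes were higher in every siCYP1B1 library than in any scrambled one. Ctsa went from 137 ± 11.1 to 154 ± 4.77 CPM (SD, n = 3), a log2 change of 0.17 ± 0.047 (SE; limma adjusted p = 0.0134). Scarb2 (chr5:92441311-92505657) measured 596, 619 and 602 CPM with scrambled siRNA and 536, 541 and 542 CPM with siCYP1B1, a log2 change of -0.17 ± 0.033 (SE; limma adjusted p = 0.0011). Npc2 measured 844, 786 and 766 and 665, 700.1 and 726 CPM, a log2 change of -0.20 ± 0.043 (SE; limma adjusted p = 0.0026), and Sgsh 25.6, 25.9 and 27.8 and 22.7, 23.1 and 22.1 CPM, a log2 change of -0.21 ± 0.057 (SE; limma adjusted p = 0.0111), all 3 without overlap. Ctsa lost its call without scrambled vehicle replicate 2 or 3 or siCYP1B1 vehicle replicate 3 (adjusted p up to 0.0832), and Sgsh without scrambled vehicle replicate 3 (0.0643). Tfeb changed by -0.14 ± 0.062 (SE; limma adjusted p = 0.111). Over all genes, 55.7% of calls were higher, and 40.8% with median-of-ratios factors.

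In E2, 2 genes were higher and 8 lower with siCYP1B1, against 11.4% and 9.80% of all tested genes, with a median of -0.060 beside 0.028. Cd63 went from 62.6, 45.4 and 63.6 to 80.6, 77.2 and 86.0 CPM, a log2 change of 0.51 ± 0.094 (SE; limma adjusted p = 0.000472), and Gpnmb from 68.2, 72.9 and 71.0 to 87.6, 81.6 and 91.0 CPM, a log2 change of 0.29 ± 0.085 (SE; limma adjusted p = 0.0183). Ctsf went from 13.5 ± 1.17 to 10.6 ± 0.482 CPM, a log2 change of -0.33 ± 0.10 (SE; limma adjusted p = 0.0256), and Npc2 from 874 ± 37.5 to 719 ± 8.94 CPM, a log2 change of -0.28 ± 0.043 (SE; limma adjusted p = 7.62e-05). Scarb2 went from 669.8, 682 and 707 to 553, 575 and 583 CPM, a log2 change of -0.27 ± 0.033 (SE; limma adjusted p = 5.65e-06), Sgsh from 32.4 ± 2.25 to 26.9 ± 0.494 CPM, a log2 change of -0.26 ± 0.057 (SE; limma adjusted p = 0.00284), and Asah1 from 181 ± 1.59 to 162 ± 3.37 CPM, a log2 change of -0.16 ± 0.034 (SE; limma adjusted p = 0.00228). Psap, Ctsl and Ctsd were also lower, with log2 changes of -0.14, -0.13 and -0.12. Gpnmb lost its call without scrambled E2 replicate 1 or siCYP1B1 E2 replicate 1 or 3 (adjusted p up to 0.0763). Ctsf and Ctsd lost theirs without scrambled E2 replicate 2 or 3 or siCYP1B1 E2 replicate 1 or 2 (up to 0.107 for Ctsf and 0.125 for Ctsd). Ctsl lost its call without scrambled E2 replicate 3 or siCYP1B1 E2 replicate 3 (0.0824) and Psap without siCYP1B1 E2 replicate 2 (0.0619). Ctsd, Ctsl and Psap were also lost with quantile normalization. Over all genes 53.7% of calls were higher, and 40.6% with median-of-ratios factors. Tfeb changed by -0.14 ± 0.062 (SE; limma adjusted p = 0.125).

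In 16aOHE, 1 gene was higher and 6 were lower with siCYP1B1, against 10.4% and 9.31% of all tested genes, with a median of -0.053 beside 0.014. Gpnmb went from 48.5, 58.7 and 49.98 to 66.6, 59.0 and 63.8 CPM, a log2 change of 0.27 ± 0.085 (SE; limma adjusted p = 0.0307). Sgsh went from 26.0 ± 0.546 to 21.8 ± 0.636 CPM, a log2 change of -0.25 ± 0.057 (SE; limma adjusted p = 0.0046), Npc2 from 772 ± 22.7 to 664 ± 31.3 CPM, a log2 change of -0.22 ± 0.043 (SE; limma adjusted p = 0.00119), and Scarb2 from 643, 678 and 663 to 592, 582 and 618 CPM, a log2 change of -0.15 ± 0.033 (SE; limma adjusted p = 0.00339). Psap changed by -0.14 ± 0.037 (SE; limma adjusted p = 0.012), Asah1 by -0.11 ± 0.034 (SE; limma adjusted p = 0.0231) and Ctsl by -0.10 ± 0.036 (SE; limma adjusted p = 0.0496). The calls of Sgsh, Npc2 and Scarb2 stood under each alternative. That of Gpnmb was lost without scrambled 16aOHE replicate 1 or 3 or siCYP1B1 16aOHE replicate 1 or 3 (adjusted p up to 0.138). Those of Psap and Asah1 were lost without scrambled 16aOHE replicate 2 or siCYP1B1 16aOHE replicate 2, and that of Asah1 also without replicate 1 of either group and in a fit on only the groups compared (up to 0.0644 for Psap and 0.115 for Asah1). Ctsl was lost with no filter on low values, with quantile normalization, in a fit on only the groups compared and without any single library except siCYP1B1 16aOHE replicate 2 (up to 0.183). Without scrambled 16aOHE replicate 2 the count of called genes fell from 7 to 4. Cd63 changed by 0.19 ± 0.094 (SE; limma adjusted p = 0.157) and was not called, and Tfeb by -0.076 ± 0.062 (SE; limma adjusted p = 0.432).

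The 3 siRNA comparisons share no library with each other. Scarb2, Sgsh and Npc2 were lower in all 3 and Gpnmb was higher in all 3. The 3 genes lower in vehicle (100%) were all among the 8 lower in E2 (37.5% of those) and among the 6 lower in 16aOHE (50% of those), and the 6 lower in 16aOHE were all among the 8 lower in E2 (75%).

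Gpnmb was called with the siRNA in each arm, though not under every alternative in E2 and 16aOHE. It was called with 16aOHE against vehicle in siCYP1B1 cells only. Its mean was 64.8 ± 11.0, 70.7 ± 2.36 and 52.4 ± 5.52 CPM (SD, n = 3) in scrambled cells with vehicle, E2 and 16aOHE, and 87.8 ± 4.55, 86.7 ± 4.73 and 63.1 ± 3.85 CPM in siCYP1B1 cells. The order from high to low was siCYP1B1 vehicle, siCYP1B1 E2, scrambled E2, scrambled vehicle, siCYP1B1 16aOHE and scrambled 16aOHE. Neighbours in that order overlapped in their libraries, except siCYP1B1 E2 and scrambled E2 and, at the lower end, siCYP1B1 16aOHE and scrambled 16aOHE. The 5 tested genes whose 6 group means ran most like those of Gpnmb were Ikbke, Rap2a, Snx2, Tarsl2 and Maml3, with Pearson correlations of 0.988 to 0.996 over 6 points. They were picked from all tested genes for that likeness, and the points share their libraries.

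Other genes of the lysosome moved with E2 as well. They were taken from lists that do not include the 37, and are read beside 18.6% of all tested genes rising, 11.4% falling and an all-gene median log2 change of 0.034. In scrambled cells 22 of 34 other lysosomal hydrolases tested rose and 0 fell, with a median log2 change of 0.22, among them the sulfatase Arsg at 0.58 and the iduronidase Idua at 0.54. Of 28 other lysosomal membrane proteins and transporters 13 rose and 0 fell (median 0.22), led by the sialic acid exporter Slc17a5 at 0.67, Atp13a2 at 0.49 and Mfsd8 at 0.42. Of 18 vacuolar ATPase subunits 12 rose and 0 fell (median 0.23), led by Atp6v0b at 0.45, Atp6ap2 at 0.40 and Atp6v0e2 at 0.34. Of 12 genes of mannose 6-phosphate tagging and sorting 6 rose and 0 fell, led by Gnptg, a subunit of the tagging enzyme, at 0.42, the sorting receptor Sort1 at 0.34 and the retromer subunit Vps26a at 0.20.

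The regulators beside Tfeb rose with E2 in 7 of 15 cases and fell in 0 in scrambled cells. These 15 are the TFEB relatives and the complexes through which mTORC1 acts on them, and they were led by the folliculin partners Fnip2 at 0.41 and Fnip1 at 0.37 and by Lamtor2, a subunit of the Ragulator complex, at 0.30. Of 31 autophagy genes 15 rose and 1 fell, led by the cargo receptor Sqstm1 at 0.39, Uvrag at 0.34 and Calcoco1 at 0.26, while the receptor Optn was lower at -0.14. The 2 cystatins tested, inhibitors of cathepsins, were not called. With median-of-ratios factors the rises were 20 of 34, 12 of 28, 11 of 18, 4 of 12, 6 of 15 and 12 of 31 in the same order of lists. With these factors 12.8% of all tested genes rose and 15.1% fell.

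In siCYP1B1 cells, where 16.7% of all tested genes rose and 10.8% fell with E2, the rises were 19 of 34, 11 of 28, 13 of 18, 4 of 12, 8 of 15 and 9 of 31, and the peptidase Prcp, at -0.22, was the only gene of the 6 lists to fall. Among hydrolases Rnaset2b rose by 0.61 and Arsg by 0.47. Rnaset2b and Rnaset2a are near-identical copies and their levels are uncertain. Among membrane proteins the potassium channel Tmem175 rose by 0.56, Slc17a5 by 0.51 and Atp13a2 by 0.47. The ATPase subunits Atp6v0b, Atp6ap2 and Atp6v1b2 rose by 0.41, 0.31 and 0.31. Among the regulators the GTPase Rragd rose by 0.60, Fnip1 by 0.36 and Fnip2 by 0.32. Sqstm1 rose by 0.44, the kinase Ulk2 by 0.25 and Calcoco1 by 0.24. The plot of called shares by list sets these counts against the shares over all tested genes.

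**Figure D5:**
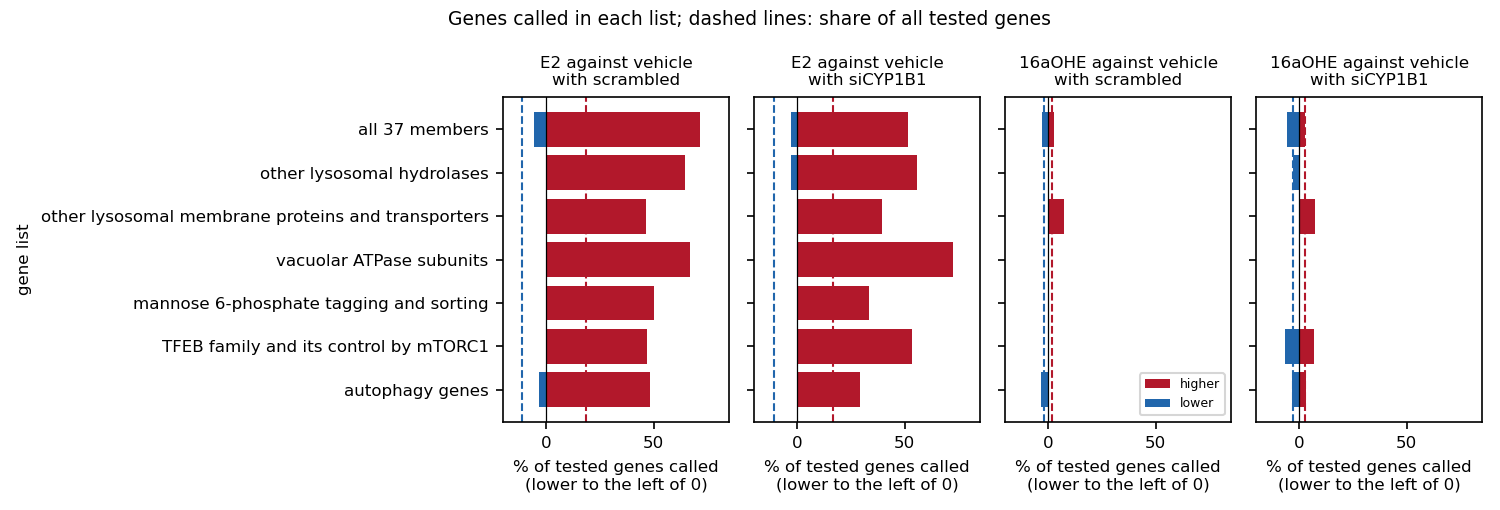
Share of the tested genes of each list called higher (red, to the right of 0) and lower (blue, to the left of 0), in percent (x axis), for E2 and 16aOHE against vehicle with each siRNA; dashed lines give the shares over all tested genes. Each of the 7 lists shown, which leave out the 2 cystatins, exceeds the dashed line for higher calls with E2. In each 16aOHE panel at most 2 genes of any list shown were called higher and at most 2 lower.

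With 16aOHE in scrambled cells 0 of the 34 other hydrolases, 0 of the 18 ATPase subunits, 0 of the 12 tagging and sorting genes and 0 of the 15 regulators were called by limma. At an unadjusted limma p under 0.05 the counts were 5, 2, 1 and 0, where 14.9% of all tested genes reached it. At the adjusted threshold 1.76% of all tested genes rose and 2.08% fell. The membrane proteins Laptm4b and Cd164 rose by 0.33 and 0.28, and Optn fell by 0.24 on the log2 scale. In siCYP1B1 cells, where 2.53% of all tested genes rose and 2.86% fell, Cd164 and Laptm4b rose again, by 0.24 and 0.20. The peptidase Dpp7 fell (-0.39). Mtor, the kinase itself, rose by 0.18 and the Ragulator subunit Lamtor3 fell (-0.31). Atg2b, a lipid transfer protein of autophagosome growth, rose by 0.17 and Map1lc3b, the ubiquitin-like protein that coats autophagosomes, fell (-0.17).

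With siCYP1B1, averaged over the arms, genes of each of these 6 lists were called in both directions, beside 26.5% of all tested genes called higher and 18.2% lower. The shares of the membrane protein, ATPase and autophagy lists were near that background. Of 34 other hydrolases 5 were higher and 10 lower. Lower were Gm2a, the activator of ganglioside breakdown, at -0.30, and the sulfatase Ids at -0.24, and higher were the near-identical Rnaset2a and Rnaset2b at 0.36 and 0.20 and the thiol reductase Ifi30 at 0.19. Of 28 membrane proteins 6 were higher and 5 lower, with the amino acid transporter Slc36a1 at 0.24, Mfsd12 at 0.23 and Slc17a5 at 0.18, and Tmem175 at -0.23, Laptm4b at -0.20 and Laptm4a at -0.19. Of 18 ATPase subunits 5 were higher, led by Atp6v1b2 at 0.15, and 2 were lower, Atp6v0e2 at -0.44 and Atp6v0a1 at -0.10. The mannose 6-phosphate receptor Igf2r at 0.29, the sorting adaptor Gga3 at 0.25 and the uncovering enzyme Nagpa at 0.23 led the 5 higher of 12 tagging and sorting genes. Gnptab, which encodes the catalytic subunits of the tagging enzyme, at -0.27, and Gga2 at -0.076 were lower. Of the 15 regulators 9 were higher, led by Rragd at 0.63, Fnip1 at 0.21 and Mtor at 0.16, and the TFEB relative Tfe3 was lower at -0.065. Autophagy genes were higher in 7 and lower in 5 of 31 cases, with Sqstm1 at 0.20, Plekhm1 at 0.19 and Uvrag at 0.15, and Gabarapl1 at -0.35, Calcoco1 at -0.20 and Tax1bp1 at -0.12. With median-of-ratios factors the higher and lower counts were 3 and 14 among hydrolases, 5 and 6 among membrane proteins and 6 and 6 among autophagy genes. With these factors 20.5% of all tested genes were higher and 21% lower.

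Cell type markers moved with the same groups, those of the labelled endothelial type among them. Summed over the 6 mesothelial markers, libraries ranged over 3812 to 3888 CPM in scrambled vehicle, 2933 to 3114 in scrambled E2, 3438 to 3673 in scrambled 16aOHE, 2943 to 3097 in siCYP1B1 vehicle, 2408 to 2479 in siCYP1B1 E2 and 2764 to 2909.8 in siCYP1B1 16aOHE. The 6 fibroblast genes summed to 6553 to 6910.4 CPM in scrambled vehicle, 4258 to 4772 in scrambled E2, 5788 to 6177 in scrambled 16aOHE, 5223 to 5521 in siCYP1B1 vehicle, 3445 to 3565 in siCYP1B1 E2 and 4592 to 4786 in siCYP1B1 16aOHE libraries. The leukocyte markers, 10 of 18 in the table and 3 tested, summed to 41.7 to 42.1 CPM in scrambled vehicle, 39.4 to 41.1 in scrambled E2 and 30.5 to 33.9 in siCYP1B1 vehicle. None of the 3 was called with E2, while Mpeg1 and Fcgr3 were lower with siCYP1B1 averaged over the arms, at -1.14 and -0.53. The 8 endothelial genes in the table summed to 258 to 297 CPM in scrambled vehicle, 210.4 to 221 in scrambled E2, 187 to 188 in siCYP1B1 vehicle and 134 to 140.4 in siCYP1B1 E2 libraries. The part of these markers in the siRNA results was not tested. In bulk RNA, fewer cells of a type and less RNA per cell cannot be told apart.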

How the data were processed

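RNA sequencing values of 18 libraries (6 groups of 3) were used. The authors deposited 1 table of CPM (counts scaled to library depth) per gene, with a constant of 1e-04 added to every value, which was subtracted here. TopHat2, Partek and the mouse build mm10 come from the lists in the submitters' processing notes, and no source used here states how strand was handled. Low values fell on steps that gave each library's depth (1 CPM was worth 14.1 to 38.5 reads), but only 93.5% to 94.8% of values under 100 reads were whole within 0.1 read, so no count test was run. Depth limits genes of low CPM most.

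Groups came from the sample labels, which number no replicates, so replicates are numbered in accession order and pair nothing. Replicates were compared for duplicates, and none were identical. Genes averaging 1 CPM or more (11835 of 15288, 35 of the 37) were tested as log2(CPM + 1) with limma 3.58.1 in R 4.3.3, with 1 coefficient per group, all 18 libraries in 1 fit, a trended prior variance and Benjamini-Hochberg adjustment within each of 12 contrasts (threshold 0.05). The fit was run on simulated independent values with known changes, which cannot test the scaling or any spread shared between libraries. Alternatives were a pseudocount of 0.1, no filter, median-of-ratios factors, quantile normalization, a fit on only the groups compared and leaving out each library.

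All 37 genes are accounted for; in each comparison up to 5 called genes per direction are given in full, with Gpnmb and Tfeb always given, and up to 3 per direction for other lists, of which some are not reported here. The 37 genes and the lists were chosen with earlier results of these data known. Exon lengths came from GENCODE (GRCm38) and promoters from RefSeq.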

Additional observations from a re-analysis of the deposited data

How the results depend on the processing

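No call of a lysosomal gene changed direction under any alternative run. The number called with 16aOHE against vehicle in scrambled cells was 2, and 1 to 2 with single libraries left out. In siCYP1B1 cells it was 3, and 2 to 5 with single libraries left out, 5 being without siCYP1B1 16aOHE replicate 1. For siCYP1B1 against scrambled in 16aOHE it was 7, and 4 to 5 with single libraries left out; fewer libraries were tested in each case. For E2 against vehicle the counts with a library left out were 21 to 29 in scrambled cells and 18 to 19 in siCYP1B1 cells. For 16aOHE against E2 they were 23 to 26 and 21 to 24. Every alternative kept 21 of 27 calls for E2 in scrambled cells and 18 of 19 in siCYP1B1 cells. For 16aOHE it kept 21 of 25 and 20 of 26 against E2, and 0 of 2 and 1 of 3 against vehicle. For the averaged siRNA comparison 11 of 14 calls were kept. In the single arms of that comparison fewer stood: 4 of 6 in vehicle, 5 of 10 in E2 and 3 of 7 in 16aOHE. Over all tested genes the share of E2 calls that were higher was 62.0% in scrambled and 60.6% in siCYP1B1 cells, and 45.9% and 44.7% with median-of-ratios factors. No paired analysis was possible because the labels give no replicate numbers. Depth limits Ctsh and Ctss, under 1 CPM, and among tested genes most Ctsf and Cd68, at 11.5 and 12.3 CPM.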
